A study of Danio rerio with 8 samples.

Results

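The Rab family of small GTPases was examined in zebrafish (Danio rerio) liver held at different temperatures. A gene was a member when its symbol in the platform annotation was rab followed by a number, and names of Rab-binding or Rab-regulating proteins (suffixes such as ip or gap) were left out. This gave 67 genes on 99 probes, out of 15548 genes with a symbol and 43603 probes in all. The 67 genes cover 38 Rab numbers. A single probe stood for 44 of them, and the other 23 had up to 4 probes. The suffix rule left out 18 probes of 10 genes.

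Rab proteins are membrane-bound switches that give each step of vesicle transport its address: with GTP bound they recruit motors, tethers and other effectors, and with GDP bound a dissociation inhibitor lifts them off the membrane. Exchange factors (GEFs) switch them on and GTPase-activating proteins (GAPs) switch them off. In liver they carry the hepatocyte's secreted plasma proteins and lipoproteins, the uptake and recycling of receptors, and traffic to the bile canaliculus. Zebrafish often keep more than 1 copy of a mammalian Rab gene, named with added letters, and the roles given below are those known mainly from mammalian cells.

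The series was made to choose probes for a custom array by their response to temperature. Total RNA of liver was hybridised in pairs to 8 Agilent 2-colour arrays, on which a Cy5-labelled and a Cy3-labelled sample compete for each probe, and the arrays joined the samples in a loop. The 7 RNA samples were 2 replicates each at 18, 26 and 34 °C on day 28 and 1 sample at 26 °C on day 4. The labels number the replicates but give no strain, sex or age and no number of fish per sample, so p-values measure the spread between these RNA samples.

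Each deposited value was a normalized log2 ratio, read here as Cy5 over Cy3. That direction is likely but unstated: it is limma's convention, and each array title begins with the sample labelled Cy5. Were it the reverse, all signs below would turn and counts given by direction would swap, while sizes, counts over both directions and p-values would stay. From the 8 ratios each gene was given a level in each RNA sample, on the log2 scale and relative to that gene's own mean over the 7 samples. Levels of different genes therefore cannot be set against each other. Without channel intensities a probe near background cannot be told from an unchanged one. Differences between groups were tested with limma on these levels, with Benjamini-Hochberg adjustment across 35434 features (genes, and probes without a symbol) and a threshold of 0.05. The ± values are moderated standard errors of that fit, with 2 samples per group on day 28, and the number of arrays limits the precision. In bulk liver RNA, fewer cells of a type and less RNA per cell cannot be told apart.

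Over the whole series the Rab genes as a group were neither uniformly flatter nor uniformly more variable than other genes. The distance from a gene's lowest to its highest sample was under 0.5 on the log2 scale for 48 of the 67 Rab genes (71.6%), against 80% of all features and 66.6% of named genes. It was over 1 for 5 Rab genes (7.46%), against 9.82% of all features and 16.5% of named genes: rab1aa, rab18b, rab35b, rab15 and rab11a. The median distance was 0.33 for Rab genes, 0.26 for all named genes and 0.19 for all features. The SD of replicate 1 minus replicate 2 over the Rab genes was 0.264 at 18 °C, 0.167 at 26 °C and 0.269 at 34 °C, against 0.273, 0.226 and 0.278 over all features.

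The widest contrast, 34 °C against 18 °C on day 28, asked which genes differ between the warm and the cold liver. It called 1 Rab gene, rab1aa, or 1.49% of the 67, where 0.982% of all features were called. Among all features 0.485% were called higher at 34 °C and 0.497% lower, and rab1aa was higher. Of the 15548 named genes 128 were called higher and 151 lower. The median difference of the Rab genes was 0.01, and it took the other sign under 9 of 22 alternative settings. The median of all features was 0.001. By sign, 36 Rab genes were positive and 31 negative, where 7077 named genes were positive and 8471 negative. A change of at least 2-fold in either direction was seen for 3 Rab genes, rab1aa, rab35b and rab15, which is 4.48% of the family, against 4.48% of all features and 7.65% of named genes. The replicates of both temperatures did not overlap for 11 Rab genes that were higher at 34 °C (16.4%, against 18.3% of all features and 19.9% of named genes). They did not overlap for 19 that were lower at 34 °C (28.4%, against 18.6% of all features and 26.8% of named genes). At an unadjusted p under 0.05 there were 17 Rab genes (25.4%, against 13.9% of all features and 23.4% of named genes), 6 of them higher at 34 °C and 11 lower. At that p 2176 of the 35434 features were higher and 2732 lower, and 1443 of the 15548 named genes were higher and 2191 lower. Treating the 8 arrays as independent, although neighbouring arrays share an RNA sample, called 9 Rab genes (13.4%, against 8.45% of all features). The share of named genes is not given for that setting. Of the 25 Rab genes named by rule, 12 kept the sign of this contrast in all 22 alternatives. Several values that did not pass moved far when a sample or an array was left out. Of the 22, those that change only the test or the features tested leave these differences unchanged. Leaving out the day 4 sample or either of its arrays gives the same differences. The 22 are therefore not independent checks of a sign.

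**Figure D1:**
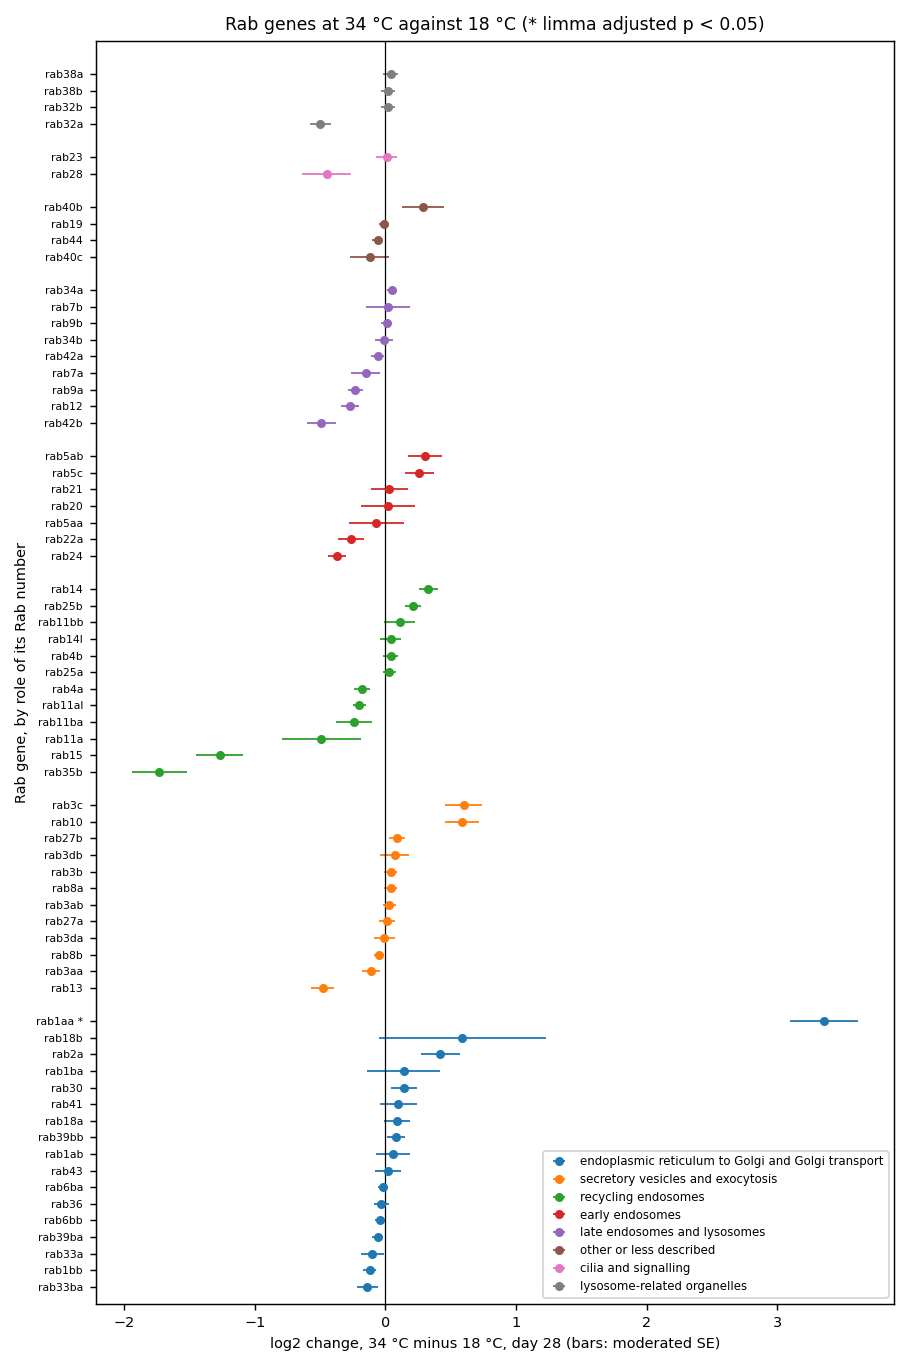
Log2 difference between 34 °C and 18 °C on day 28 for the 67 Rab genes (points) with the moderated standard error (bars), grouped and coloured by the role of the Rab number. rab1aa stands apart at 3.36 and is the 1 gene marked as past the threshold, rab35b at -1.73 and rab15 at -1.27 lie at the other end, and all other genes lie between -0.50 and 0.60.

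Among the Rabs of the endoplasmic reticulum and Golgi, rab1aa was higher at 34 °C than at 18 °C. It is a gene of Rab1, which directs vesicles from the endoplasmic reticulum to the Golgi, the first leg of the secretory route. Its level was -1.86 and -1.75 in the 2 samples at 18 °C, 0.27 and 0.44 at 26 °C, -0.22 at 26 °C on day 4, and 1.93 and 1.19 at 34 °C. The samples were in order of temperature on day 28, with no overlap between neighbouring groups. At 34 °C against 18 °C the difference was 3.36 ± 0.26, or 10.3-fold (limma adjusted p = 0.0348). The steps from each side of 26 °C had the same direction but did not pass: 34 °C against 26 °C gave 1.21 ± 0.26 (limma adjusted p = 0.301), and 18 °C against 26 °C gave -2.16 ± 0.26 (limma adjusted p = 0.39).

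The array ratios behind these levels can be read one by one, since rab1aa has 1 probe. The array that set 34 °C replicate 1 directly against 18 °C replicate 1 gave 3.93. On 3 arrays 26 °C met 34 °C: the ratio of 26 °C replicate 1 over 34 °C replicate 1 was -1.39, that of 26 °C replicate 2 over 34 °C replicate 1 was -1.45, and that of 34 °C replicate 2 over 26 °C replicate 2 was 0.889. On 2 arrays 26 °C met 18 °C on day 28, and the ratio was 2.46 for 26 °C replicate 2 over 18 °C replicate 2 and -1.74 for 18 °C replicate 2 over 26 °C replicate 1. All 6 of these ratios favoured the warmer sample. The day 4 sample took part in the remaining arrays, at -1.50 for 18 °C replicate 1 over day 4 and -1.26 for day 4 over 34 °C replicate 2.

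The call of rab1aa rested on the full set of samples, while its direction held in all 22 alternatives, some of which could not change the estimate. Without replicate 1 or 2 at 18 °C the difference was 3.24 or 3.41, without replicate 1 or 2 at 26 °C it was 3.46 or 2.95, without the day 4 sample it was 3.05, and without replicate 1 or 2 at 34 °C it was 3.06 or 3.73, none past the threshold (limma adjusted p from 0.115 to 0.728). No feature of the whole table was called in those 7 fits. Leaving out a single array also ended the call for 7 of the 8 arrays (3.05 to 3.74, limma adjusted p from 0.0688 to 0.344), and scaling the arrays to a common spread (3.94, limma adjusted p = 0.198) or fitting only these groups (limma adjusted p = 0.079) ended the call too.

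**Figure D2:**
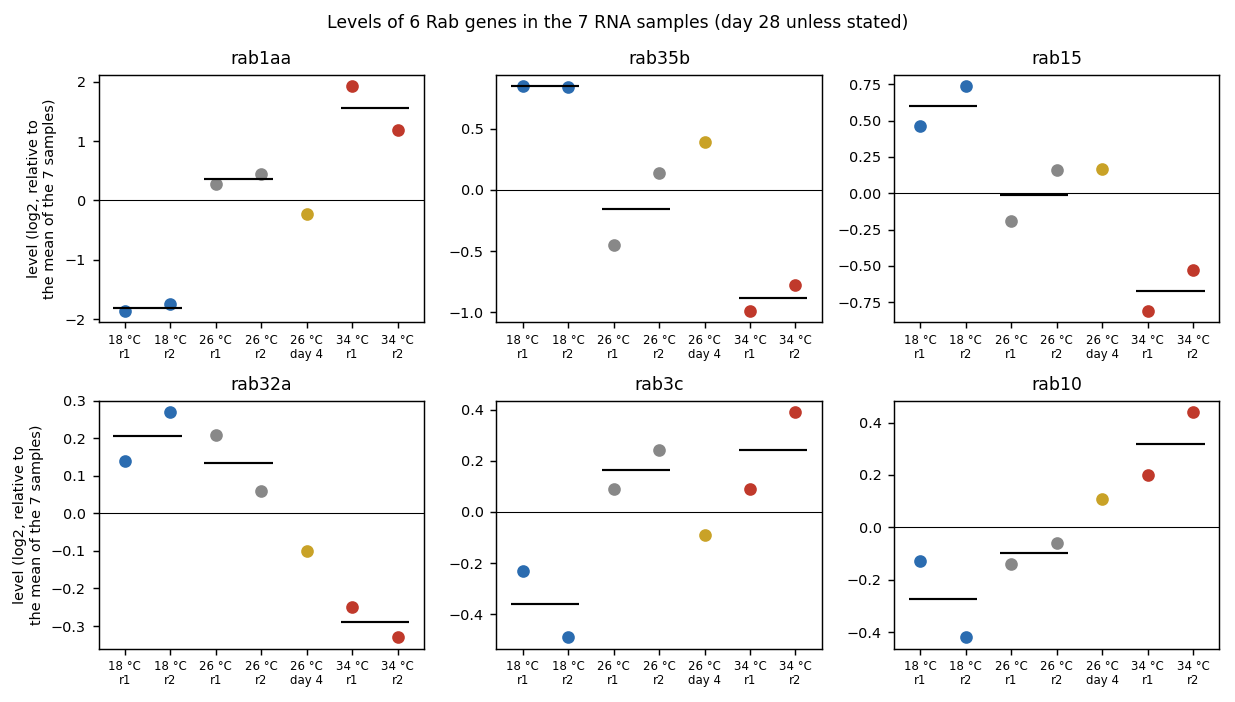
Levels of 6 Rab genes in the 7 RNA samples, on the log2 scale relative to each gene's mean over the samples. Each point is 1 RNA sample, coloured by group, and the short bars are the means of the 2 replicates; the vertical scale differs between genes. rab1aa runs from -1.86 at 18 °C to 1.93 at 34 °C, while rab35b, rab15 and rab32a are lowest at 34 °C and rab3c and rab10 vary by less than 1.

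The other 3 rab1 genes gave smaller values, and none passed. Levels of rab1ab were -0.19 and -0.07 at 18 °C, 0.28 and -0.01 at 26 °C, 0.13 on day 4, and -0.18 and 0.03 at 34 °C. For rab1ba they were -0.45 and 0.36 at 18 °C, 0.13 and -0.07 at 26 °C, -0.17 on day 4, and 0.14 and 0.05 at 34 °C. In rab1bb the values were -0.02 and -0.07 at 18 °C, 0.09 and 0.17 at 26 °C, 0.18 on day 4, and -0.21 and -0.13 at 34 °C. The 34 °C and 18 °C samples overlapped in rab1ab and rab1ba, and in rab1bb the 34 °C samples were the lowest of all 7. Their differences at 34 °C against 18 °C were 0.06 ± 0.13, 0.14 ± 0.28 and -0.12 ± 0.05 (limma adjusted p = 0.938, 0.933 and 0.436). The 4 rab1 genes therefore spanned 3.49 on the log2 scale. In no other of the 20 Rab numbers with several measured genes did the genes span more than 0.71, the span of the 6 rab3 genes. A test of the difference between these genes was not made. How far probes of 1 gene bind RNA of another is not known here. The values of rab1ab and rab1bb are means of 2 probes each. At 34 °C against 18 °C the probes gave 0.36 and -0.24 in rab1ab, and -0.25 and 0.0 in rab1bb. In the latter probe of rab1bb, 34 °C replicate 1 stood at -0.04, above the 18 °C samples at -0.1 and -0.18.

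**Figure D3:**
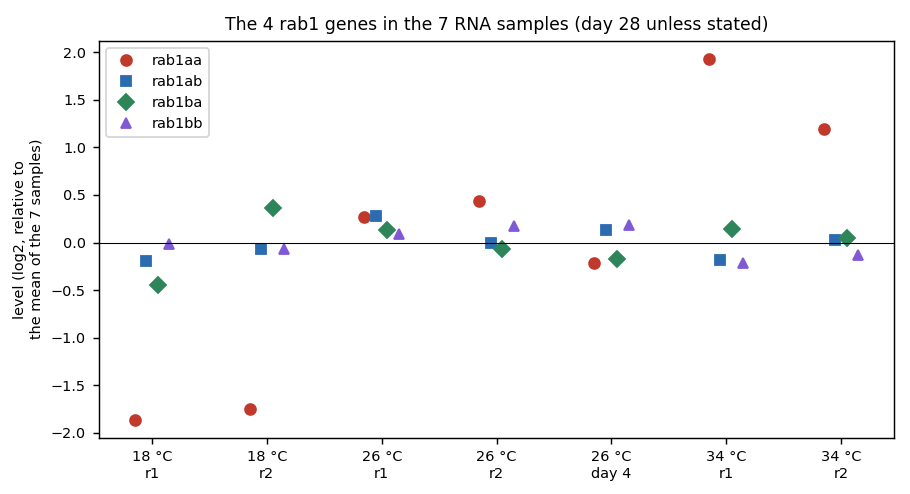
Levels of the 4 rab1 genes in the 7 RNA samples, on the log2 scale relative to each gene's own mean. Each point is 1 gene in 1 RNA sample. rab1aa spreads from -1.86 to 1.93, and the other 3 genes stay between -0.45 and 0.36 in all samples. rab1ab and rab1bb are shown as means of 2 probes each.

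The remaining endoplasmic reticulum and Golgi Rabs did not pass at any contrast. Of the 17 genes of this group, 10 were positive and 7 negative at 34 °C against 18 °C, with a median of 0.06. At 18 °C against 26 °C, 3 were positive and 14 negative, with a median of -0.10. Of all named genes 7516 were positive and 8032 negative at that contrast. rab18b, a copy of a Rab found on lipid droplets and the endoplasmic reticulum, differed by 0.59 ± 0.64 at 34 °C against 18 °C (limma adjusted p = 0.852). Its levels were 0.24 and -1.05 at 18 °C, -0.44 and 0.31 at 26 °C, 0.59 on day 4, and -0.44 and 0.80 at 34 °C. The replicates of each temperature lay further apart than the temperatures, and no other Rab gene had replicates as far apart. rab6ba, a copy of a Rab of transport back through the Golgi, was the flattest of the group as a mean of its 3 probes. That mean ranged from -0.03 to 0.03 over all samples, and its difference was -0.02 ± 0.04. The single probes varied more, and on day 4 they stood at 0.09, 0.06 and -0.14.

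The 4 probes of rab2a, a Rab of transport between the endoplasmic reticulum and Golgi, disagreed, and the gene is named here for that. As a mean of its probes rab2a was -0.49 and -0.33 at 18 °C, 0.42 and 0.31 at 26 °C, 0.07 on day 4, and 0.22 and -0.20 at 34 °C. It was highest at 26 °C and lowest at 18 °C, with no overlap among the 3 temperatures. At 18 °C against 26 °C the difference was -0.78 ± 0.15 (unadjusted p = 0.00488, limma adjusted p = 0.558), and at 34 °C against 18 °C it was 0.42 ± 0.15 (limma adjusted p = 0.344). Probe by probe the difference at 34 °C against 18 °C was 0.75, 1.12, 0.03 and -0.22. Over the 23 Rab genes with several probes, the probes had 1 sign at this contrast in 14 and opposite signs in 9, and they lay apart by more than 0.5 in 7.

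Recycling endosome Rabs, which return receptors and membrane to the cell surface, held the largest negative differences. Of the 12 genes, 6 were positive and 6 negative at 34 °C against 18 °C, with a median of -0.07, and none passed. rab35b is a copy of Rab35, which acts in fast recycling from endosomes to the plasma membrane and in cell division. The levels of rab35b were 0.85 and 0.84 at 18 °C, -0.45 and 0.14 at 26 °C, 0.39 on day 4, and -0.99 and -0.78 at 34 °C. As means of the probes, the day 28 samples were in falling order of temperature with no overlap. The difference at 34 °C against 18 °C was -1.73 ± 0.21, a 3.31-fold difference that did not pass (limma adjusted p = 0.0513). It passed in 3 of 23 alternatives. These were only named genes tested (limma adjusted p = 0.0415) and the 8 arrays treated as independent (-1.80, limma adjusted p = 0.00663). The other was the fit without the array of 26 °C replicate 2 and 34 °C replicate 1 (-1.71, limma adjusted p = 0.0419). The difference did not pass with arrays scaled to a common spread (-1.95, limma adjusted p = 0.315) or with only these groups fitted (limma adjusted p = 0.0683). At 18 °C against 26 °C it was 1.00 ± 0.21 and at 34 °C against 26 °C -0.73 ± 0.21 (limma adjusted p = 0.591 and 0.397).

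All 3 probes of rab35b gave the same sign, at -1.62, -1.08 and -2.49 for 34 °C against 18 °C. They differed at 26 °C: in replicate 2 the probes stood at 0.01, -0.35 and 0.77, and on day 4 at 0.84, 0.57 and -0.24. In the first probe 26 °C replicate 1, at -0.79, lay below 34 °C replicate 2, at -0.55. In the third probe 26 °C replicate 2, at 0.77, lay above 18 °C replicate 1, at 0.73. So the place of 26 °C between the other temperatures depended on the probe, while the order of 18 °C over 34 °C did not.

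rab15, a Rab of early and recycling endosomes, resembled rab35b in its order. Samples at 18 °C stood at 0.46 and 0.74, at 26 °C at -0.19 and 0.16, on day 4 at 0.17, and at 34 °C at -0.81 and -0.53. The difference at 34 °C against 18 °C was -1.27 ± 0.18 and did not pass (limma adjusted p = 0.0643). It passed with the arrays treated as independent (-1.32, limma adjusted p = 0.0112) and without the array of 26 °C replicate 2 and 34 °C replicate 1 (-1.24, limma adjusted p = 0.0196). The value was -0.71 without the day 4 sample, and -1.94 without either of the arrays that set 34 °C replicate 1 against 18 °C replicate 1 and 34 °C replicate 2 against 26 °C replicate 2. Besides rab15 and rab35b, rab9a had the same order without overlap, which makes 3 Rab genes (4.48%, against 3.77% of all features and 6.5% of named genes). The opposite order was seen in rab1aa, rab14 and rab25b, again 4.48%, against 3.63% of all features and 5.0% of named genes. rab9a, rab14 and rab25b, named for this order alone, had differences of -0.23 ± 0.06, 0.33 ± 0.07 and 0.21 ± 0.06 at 34 °C against 18 °C (limma adjusted p = 0.199, 0.123 and 0.218). The order of rab14 is that of the mean of its 2 probes, which gave 0.65 and 0.01. In the latter probe the 34 °C samples, at -0.05 and 0.03, lay between the 18 °C samples, at -0.08 and 0.05.

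The 4 rab11 genes, central to the recycling endosome, ranged from -0.49 to 0.11 at 34 °C against 18 °C, and none passed. rab11a had levels of 0.42 and -0.05 at 18 °C, -0.15 and -0.07 at 26 °C, 0.47 on day 4, and -0.70 and 0.09 at 34 °C, so the 18 °C and 34 °C replicates overlapped. Its difference was -0.49 ± 0.30 (limma adjusted p = 0.666). rab11ba was highest at 26 °C on day 28, with 0.53 and 0.29, against -0.05 and 0.06 at 18 °C, -0.40 and -0.08 at 34 °C and -0.35 on day 4. It had the lowest value of the Rab genes at day 4 against day 28 (-0.76, limma adjusted p = 0.645), and at 34 °C against 26 °C it gave -0.65 ± 0.14 (limma adjusted p = 0.307). rab25a, a copy of an epithelial relative of Rab11, was flat with a difference of 0.03 ± 0.05.

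**Figure D4:**
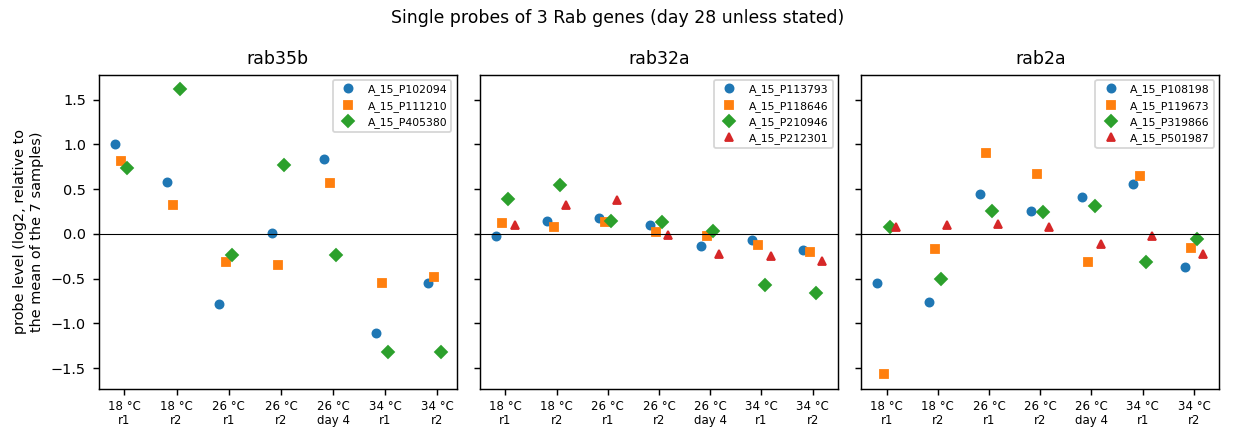
Levels of the single probes of rab35b (3 probes), rab32a (4) and rab2a (4) in the 7 RNA samples, on the log2 scale relative to each probe's own mean. Each symbol is 1 probe in 1 RNA sample. All probes of rab35b and rab32a are lower at 34 °C than at 18 °C on average, with -2.49 for the steepest rab35b probe and -1.08 for the steepest rab32a probe, while the rab2a probes run from 1.12 to -0.22.

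Among the Rabs of secretory vesicles, 8 of 12 were positive and 4 negative at 34 °C against 18 °C, with a median of 0.04, and none passed. rab3c is a gene of Rab3, which docks regulated secretory vesicles. Its levels were -0.23 and -0.49 at 18 °C, 0.09 and 0.24 at 26 °C, -0.09 on day 4, and 0.09 and 0.39 at 34 °C. The 18 °C samples were the lowest of the series, and 26 °C and 34 °C overlapped. Its difference at 34 °C against 18 °C was 0.60 ± 0.14 (limma adjusted p = 0.153). It was 0.06 without the day 4 sample, and over single arrays left out it ran from 0.06 to 1.25.

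rab10 acts in exocytic and basolateral traffic, including insulin-driven delivery of a glucose transporter. Levels of rab10 were -0.13 and -0.42 at 18 °C, -0.14 and -0.06 at 26 °C, 0.11 on day 4, and 0.20 and 0.44 at 34 °C, where both samples exceeded all others. The difference was 0.59 ± 0.13 (limma adjusted p = 0.137), and its sign turned in 3 of 22 alternatives, to -0.40 without the day 4 sample or either of its arrays. rab13, a Rab of traffic to cell junctions, went the other way, with -0.27 in both samples at 34 °C, 0.09 and 0.34 at 18 °C, 0.22 and 0.18 at 26 °C and -0.29 on day 4. As a mean of its probes, its 34 °C and day 4 samples were thus alike and below the rest. The difference was -0.48 ± 0.09 at 34 °C against 18 °C (limma adjusted p = 0.103). Its 2 probes gave -0.77 and -0.2, and in the latter 34 °C replicate 1 and 18 °C replicate 1 both stood at -0.03. rab27a, which tethers secretory granules and melanosomes, stayed at 0.01 ± 0.06.

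The early endosome Rabs had 4 positive and 3 negative values at 34 °C against 18 °C, with a median of 0.02. rab24, linked to autophagy, was the furthest from 0. It stood at 0.05 and 0.16 at 18 °C, 0.18 and 0.12 at 26 °C, 0.02 on day 4, and -0.33 and -0.21 at 34 °C, the lowest samples of the series. Its differences were -0.37 ± 0.07 against 18 °C and -0.42 ± 0.07 against 26 °C (limma adjusted p = 0.0936 and 0.243). rab20, a Rab of endosomes and phagosomes, was nearest to 0 at 0.02 ± 0.21, with 18 °C replicates of 0.43 and -0.12.

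Of the 9 late endosome and lysosome Rabs, 3 were positive and 6 negative at 34 °C against 18 °C (median -0.06). At 34 °C against 26 °C 1 was positive and 8 negative (median -0.06), where 6809 named genes were positive and 8739 negative. None of the 9 passed. rab42b, of a little described Rab number, had levels of 0.07 and 0.25 at 18 °C, 0.08 and 0.33 at 26 °C, -0.08 on day 4, and -0.26 and -0.39 at 34 °C. Both 34 °C samples lay below the other 5, and the difference was -0.49 ± 0.11 against 18 °C and -0.53 ± 0.11 against 26 °C (limma adjusted p = 0.151 and 0.303). rab9b, a gene of the Rab that returns receptors from late endosomes to the Golgi, differed by 0.01 ± 0.04.

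Rab32 and Rab38 serve lysosome-related organelles such as melanosomes. At 18 °C rab32a stood at 0.14 and 0.27, at 26 °C at 0.21 and 0.06, on day 4 at -0.10, and at 34 °C at -0.25 and -0.33. As a mean of its 4 probes, both 34 °C samples were the lowest of the 7. In the probe of smallest difference the day 4 sample, at -0.14, lay below 34 °C replicate 1, at -0.07. The difference was -0.50 ± 0.08 at 34 °C against 18 °C (limma adjusted p = 0.0744) and -0.43 ± 0.08 at 34 °C against 26 °C (limma adjusted p = 0.266). Its 4 probes gave -0.18, -0.26, -1.08 and -0.49 at 34 °C against 18 °C, and with single probes tested the steepest passed (limma adjusted p = 0.0366). rab32b was flat at 0.02 ± 0.05, and 3 of the 4 genes of this group were positive.

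The last groups held 2 genes of cilia and signalling, 1 positive and 1 negative at 34 °C against 18 °C, and 4 less described genes, 1 positive and 3 negative. rab28, found in cilia, had levels of 0.47 and -0.04 at 18 °C, -0.08 and 0.04 at 26 °C, 0.09 on day 4, and -0.33 and -0.14 at 34 °C. The 34 °C samples were the lowest, and the difference was -0.45 ± 0.19 (limma adjusted p = 0.412). rab23, which acts in Hedgehog signalling, stood at 0.01 ± 0.08. rab40b, whose mammalian kin join ubiquitin ligases, had -0.30 and -0.11 at 18 °C, -0.10 and 0.21 at 26 °C, 0.13 on day 4, and -0.07 and 0.24 at 34 °C, a difference of 0.29 ± 0.16 (limma adjusted p = 0.609). rab19, less described, was at -0.01 ± 0.04. Signs within the role groups were not recomputed under the alternatives.

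Against 26 °C, neither temperature gave a called Rab gene. At 34 °C against 26 °C limma called 0 of 67 (0% of all features), while 14 Rab genes had an unadjusted p under 0.05 (20.9%, against 8.79% of all features and 15% of named genes). Treating the 8 arrays as independent, although they share RNA samples, called 11 (16.4%, against 3.87% of all features, with the share of named genes not given). Replicates did not overlap for 9 Rab genes higher at 34 °C (13.4%, against 18.6% of all features and 17.1% of named genes) and 22 lower (32.8%, against 20.2% and 27.7%). The median was -0.02, with 27 positive and 40 negative, where 6809 named genes were positive and 8739 negative. Among the Rab genes rab1aa at 1.21 was the highest and rab35b at -0.73 the lowest. A 2-fold difference was reached by 1 Rab gene (1.49%, against 2.07% of all features).

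At 18 °C against 26 °C limma also called 0 of 67 (0.00282% of all features), with 7 Rab genes at an unadjusted p under 0.05 (10.4%, against 4.43% of all features and 7.82% of named genes) and 0 when arrays were treated as independent (0.0818% of all features). Replicates did not overlap for 7 Rab genes higher at 18 °C (10.4%, against 11.7% of all features and 14.9% of named genes) and 17 lower (25.4%, against 13.5% and 17.1%). By sign 22 were positive and 45 negative, where 7516 named genes were positive and 8032 negative. The Rab median was -0.03. Among the Rab genes rab1aa was the lowest at -2.16 and rab35b the highest at 1.00. A 2-fold difference was reached by 1 Rab gene (1.49%, against 1.11% of all features). The comparisons share samples with each other, so these counts are not independent of those at 34 °C against 18 °C.

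Day 4 against day 28 at 26 °C rested on a single day 4 sample, assumed to vary like the others. It gave 0 called Rab genes (0% of all features), 4 at an unadjusted p under 0.05 (5.97%, against 6.73% of all features and 8.99% of named genes) and 0 with the arrays treated as independent. By sign 30 were positive and 37 negative, where 7335 named genes were positive and 8213 negative. The Rab median was -0.02. The day 4 level lay outside the range of the day 28 replicates on the high side for 23 Rab genes (34.3%, against 38.8% of all features) and on the low side for 30 (44.8%, against 40.3%). No Rab gene reached a 2-fold difference (1.33% of all features did). rab18b was the highest at 0.65 ± 0.79 and rab11ba the lowest at -0.76 ± 0.17.

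The genes of proteins that load, switch and read Rabs gave no call. Listed genes were found by symbol or synonym, and those not found may have probes that carry no symbol here. Found were 6 of 8 listed Rab GDI, escort protein and prenyltransferase genes and 33 of 47 GEFs. Of the GAPs 26 of 41 were found, and of the effectors and tethers 42 of 73. No member passed in either direction in any of the 4 comparisons, in which 0.982% of all features were called at 34 °C against 18 °C, 0.00282% at 18 °C against 26 °C and 0% at the others. Their medians at 34 °C against 18 °C were -0.14, -0.03, -0.04 and -0.02, where the Rab genes had 0.01 and all features 0.001. Among the GEFs, dennd2b had the smallest p. Its levels were -0.59 and -0.57 at 18 °C, -0.52 and -0.06 at 26 °C, 0.28 on day 4, and 0.66 and 0.81 at 34 °C, which put both 34 °C samples above the rest. The difference was 1.31 ± 0.17 (limma adjusted p = 0.0549). It ran from 0.67 to 2.08 over the alternatives and passed in 3 of them.

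The gene of smallest p among the GAPs was tbc1d19, at -0.47 ± 0.07 for 34 °C against 18 °C (limma adjusted p = 0.0671). Over 22 alternatives it ran from -0.90 to 0.04, with the sign turned in 2. Among the effectors it was exoc3, a subunit of the exocyst that tethers secretory vesicles, at -0.54 ± 0.07 (limma adjusted p = 0.0607). Its range was -0.90 to -0.14, the latter without replicate 2 at 26 °C. rabggta, a subunit of the enzyme that attaches lipid anchors to Rabs, gave -0.60 ± 0.26 (limma adjusted p = 0.444). At 34 °C against 26 °C the effector of smallest p was vps11, a subunit of endosome and lysosome tethers, at -1.04 ± 0.18 (limma adjusted p = 0.251).

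In the neighbouring small GTPase families described here 1 gene was called, lower at 34 °C against 18 °C. At that contrast 0.982% of all features were called, and 0.497% were called lower. The Arf, Arl and Sar1 list (12 of 37 found by symbol) had 0 calls in each comparison, with a median of -0.07 at 34 °C against 18 °C. Its gene of smallest p at that contrast was arf5, of Golgi transport, at -0.69 ± 0.13 (limma adjusted p = 0.0968). The Ras, Rap and Ral list (22 of 30, median -0.04) held rheb, the activator of the mTORC1 growth kinase. rheb stood at 0.54 and 0.74 at 18 °C, -0.13 and -0.09 at 26 °C, -0.60 on day 4, and -0.19 and -0.27 at 34 °C. Only the 18 °C samples were above 0, and the 26 °C and 34 °C samples lay close together. The difference of rheb at 34 °C against 18 °C was -0.87 ± 0.08 (limma adjusted p = 0.0408). That call was lost on leaving out any single RNA sample, with -0.45 without the day 4 sample and values from -1.0 to -0.76 without each of the others.

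Markers of some cell types also differed at 34 °C against 18 °C, where 0.485% of all features were called higher and 0.497% lower. Hepatocyte markers (17 of 21 listed found by symbol) were positive at 34 °C against 18 °C in 16 genes, with a median of 1.56 and 1 called. Their median level was -0.43 and -1.0 at 18 °C, 0.12 and -0.41 at 26 °C, 0.01 on day 4, and 1.29 and 0.30 at 34 °C. Exocrine pancreas markers (15 of 16) were positive in 14, with a median of 2.21 and 0 called, and their median level was -1.83 and -0.44 at 18 °C, 0.80 and -1.18 at 26 °C, 1.07 on day 4, and 0.90 and 0.55 at 34 °C. On day 28 both lists had higher medians at 34 °C than at 18 °C, as rab1aa did. The hepatocyte median was also in the same rising order as rab1aa on day 28, without overlap. Its nearest values at 18 °C and 26 °C were -0.43 and -0.41. In the pancreas median the 26 °C samples overlapped both other temperatures.

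Oocyte markers (18 of 20) were negative in all 18, with a median of -2.11 and 5 called (0.497% of all features were called lower). Their median level was 0.75 and 1.32 at 18 °C, 0.03 and 0.06 at 26 °C, -0.35 on day 4, and -0.94 and -0.70 at 34 °C. They were in the same falling order as rab35b and rab15 on day 28. On day 4 the oocyte median was -0.35, rab35b stood at 0.39, and its 3 probes stood at 0.84, 0.57 and -0.24. Erythroid (6 of 8), immune and endothelial (11 of 12) and neuron (6 of 8) markers had medians of 0.03, 0.08 and 0.01, and intestine and bile duct markers (6 of 6) a median of 0.41. The part of any of these cell types in the Rab values was not tested. Ratios carry no absolute level, so the liver label could not be checked against the presence of its markers.

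**Figure D5:**
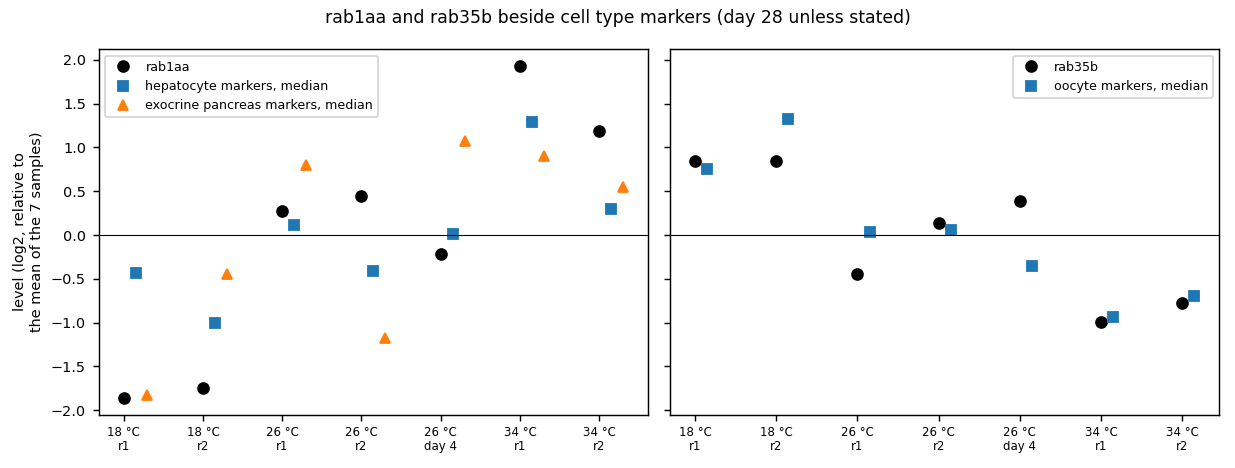
Levels of rab1aa (left) and rab35b (right) in the 7 RNA samples beside the median level of marker lists, on the log2 scale relative to the mean of the samples. Each point is 1 RNA sample. On day 28 the oocyte median runs from 1.32 at 18 °C to -0.94 at 34 °C and rab35b from 0.85 to -0.99. On the left the 26 °C replicates are 0.80 and -1.18 in the pancreas median and 0.12 and -0.41 in the hepatocyte median. They are 0.27 and 0.44 in rab1aa.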

How the data were processed

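Liver RNA of 7 samples was measured on 8 two-colour arrays. For every probe and array the authors deposited a normalized log2 ratio. Their tool was limma, of no stated version, per the submitters' processing notes. The background correction, the normalization and the spot filters are steps not given in the sources used here, and so is the base 2, inferred because values span -8.96 to 8.03 and base 10 would keep ratios of 16-bit signals within 4.82. No value was missing. The table has no intensities, and no filter on low values was applied, so all 67 Rab genes were tested.

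Probes were named through the platform annotation. Of 43603 probes, 23717 carried a single symbol, 0 carried several and 19886 are unnamed here, and symbols were updated through a RefSeq gene table by Entrez ID (23534) or accession (42), with 141 kept. Updating left the same 99 probes and 67 genes. Probes of 1 symbol were averaged. The array's genome build is not named, and no coordinates or sequences are given.

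Least squares first turned the 8 ratios of a feature into levels of the 7 RNA samples, with a dye term (1 residual degree of freedom). The 4 groups were then compared on the levels with limma 3.58.1 in R 4.3.3 (lmFit, eBayes; 3 residual and 1.63 prior degrees of freedom, two-sided). Neighbouring samples share an array, and this second fit takes no account of the correlation that brings. The steps were tested on simulated arrays.

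Members, role groups, pathway and marker lists were chosen with earlier results of these data known. Genes named were those past the threshold and the 10 Rab genes of largest change at 34 °C against 18 °C. Also named were the highest and lowest of each other comparison and the largest and smallest of each role group. So were all genes of a Rab number that differ in sign and span over 1. Each pathway list gave its called genes or its gene of smallest p. The values of 1 further list are not reported here. rab2a, rab9a, rab14 and rab25b were named after their values were seen. Alternatives were no dye term, single probes, named features only, a common array spread, limma on the 8 arrays, only the groups compared, a replicate block, a robust prior, and each RNA sample or array left out.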

Additional observations from a re-analysis of the deposited data

How the results depend on the processing

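At 34 °C against 18 °C, 348 features and 1 Rab gene were called. Scaling arrays to a common spread gave 0 features and 0 Rab genes, and fitting only the groups compared also gave 0 and 0. Treating the 8 arrays as independent gave 2994 features and 9 Rab genes, single probes gave 226 probes and 2 Rab genes (rab1aa and rab32a), and testing named features gave 451 features and 2 Rab genes (rab1aa and rab35b). Leaving out an RNA sample or an array gave from 0 to 246 features and from 0 to 3 Rab genes. Without the array of 26 °C replicate 2 and 34 °C replicate 1 the 3 were rab1aa, rab15 and rab35b; without any other array the Rab count was 0. At 34 °C against 26 °C the arrays treated as independent gave 1372 features and 11 Rab genes, against 0 and 0, and leaving out a sample or an array gave 0 to 2 features. At 18 °C against 26 °C, where 1 feature and no Rab gene was called, common spread, only the groups compared, single probes and every omission of a sample or an array gave 0 features, and arrays treated as independent gave 29. Day 4 against day 28 gave 0 features in every alternative. Without 26 °C replicate 2 or 34 °C replicate 1 only 5 arrays were left and the dye term was dropped. Whether equal replicate numbers pair the samples was not settled. Deviations from the group means correlated at -0.151 for 18 °C with 26 °C, -0.133 for 18 °C with 34 °C and 0.415 for 26 °C with 34 °C. Samples that share arrays can correlate for that alone, so these values cannot decide it. With the replicate number as a block, 237 features and 1 Rab gene were called at 34 °C against 18 °C, the gene being rab15 (adjusted p = 0.0304) and rab1aa having 0.0584. At 18 °C against 26 °C the block gave 0 features. Of 2784 values of single named genes under the alternatives, 1945 kept their side of the threshold without moving by more than the replicate spread. A further 775 moved by more, 35 lost a call, 29 gained one and 0 called values changed sign. For values called in the main fit the size of the move was not asked. Settings that change only the test or the features tested leave a difference unchanged, so the 1945 are not independent checks. Only rab1aa and rheb at 34 °C against 18 °C had a call to lose, so the 35 losses and the 0 sign changes concern these genes alone. rab1aa passed in 6 of 23 alternatives, single probes among them, and rheb in 4 of 22. The Rab median ranged from -0.05 to 0.021 at 34 °C against 18 °C, from -0.05 to -0.018 at 34 °C against 26 °C, from -0.071 to -0.004 at 18 °C against 26 °C and, with the sign turned in 4 of 21, from -0.101 to 0.059 at day 4 against day 28. The causes were not tested. Signal over background is unknown.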
